A study of Mus musculus with 6 samples.

Results

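Genomic sites that were open in both the lens line MV+ (Pax6-ON) and the renal line RAG (Pax6-OFF) were compared by the strength of their ATAC-seq signal. A shared site was a peak of the MV+ line on chromosomes 1 to 19 that overlapped a RAG peak by at least 1 bp, and where several RAG peaks overlapped, the one with the largest pileup was taken. This gave 5294 shared sites, 56.2% of the 9418 MV+ peaks on these chromosomes, among 51867 peaks called in the 3 lines together. For each site the log2 ratio of the MV+ to the RAG pileup was taken and the median of all shared sites on the same chromosome was subtracted, so that a gain or loss of a whole chromosome was set aside. The 300 sites with the highest and the 300 with the lowest centred ratio are described here. They were chosen by the ratio itself, so their ratios are a description and carry no test.

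MV+ cells were grown out of the lens epithelium of a wild-type C57BL6 mouse, and RAG cells came from a BALB/c renal adenocarcinoma. Beta-TC3, an insulinoma line (Pax6-HIGH), served as a reference. The lines differ in tissue, in strain and in the NP40 detergent used to free the nuclei, which was 0.2% for MV+ and 0.1% for RAG and Beta-TC3, so that these cannot be told apart as sources of a difference. The lines were not authenticated in the study. Each line stands for its tissue with 1 culture line only.

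ATAC-seq uses the Tn5 transposase, which cuts DNA where nucleosomes do not cover it and tags the cut ends, and fragments pile up at active promoters and enhancers. Promoters of housekeeping genes are rich in CpG dinucleotides and tend to be open in most cell types, whereas distal elements, many of which are enhancers, are more often open in a single cell type. Within a shared site the height of the pileup reflects how often the site is cut, and also how many copies of that DNA the cells carry.

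The labels were first set against promoter peaks of marker genes. Pax6 and Prox1, which encode lens transcription factors, had a promoter peak in MV+ and none in RAG. Maf, another lens factor, had one in both, with 42 fragments in MV+ and 51 in RAG (-0.51 ± 0.30), and of the 36 autosomal members of the lens and eye factor list 7 had a promoter peak in MV+, 11 in RAG and 17 in Beta-TC3. Of 34 crystallin and fiber cell genes Efna5, Tdrd7 and Caprin2 had one in MV+, and no crystallin gene did, while in RAG Cryab did. By its defining products, the crystallins, MV+ thus showed no sign of the lens fiber cell at promoters. RAG had promoter peaks at Pax2, Sall1, Hoxa10 and Hoxa11, which encode regulators of kidney development, and at Cdh16, which encodes a cadherin of the kidney tubule. In all 6 of 33 nephron factors and 6 of 42 tubule genes had a RAG peak, against 6 and 3 in MV+. Of the same lists, Osr2, Six2, Irx2, Irx3, Ppara and the tubule gene Slc4a4 had a promoter peak in MV+ and none in RAG. The nephron list thus did not set RAG apart from MV+. Of 18 immune cell genes none had a promoter peak in MV+ and 1, Cd68, in RAG. Of 15 endothelial genes Kdr and Flt1 had one in MV+ and none did in RAG. Of 38 islet and neuroendocrine genes 8 had one in MV+, 3 in RAG and 21 in Beta-TC3. Few of these markers were shared sites.

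The sequences of some leading sites are given first, as the forward strand of the mm9 genome at the MV+ summit with 50 bases on either side. Capitals mark matches to a motif on either strand. Windows that overlap an exon of a protein-coding gene are not shown. The first set holds the 6 highest distal sites (over 1 kb from any protein-coding start site) with a match to TGANTCA, the site bound by Fos and Jun dimers (AP-1), in capitals. Each is named by the nearest protein-coding gene.
Adcyap1, chr17:93779478-93779578: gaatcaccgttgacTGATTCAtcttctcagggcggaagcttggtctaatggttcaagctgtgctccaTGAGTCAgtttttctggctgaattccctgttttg
Stim2, chr5:54969928-54970028: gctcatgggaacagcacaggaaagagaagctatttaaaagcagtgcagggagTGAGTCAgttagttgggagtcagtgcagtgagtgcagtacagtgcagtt
Ghr, chr15:3657802-3657902: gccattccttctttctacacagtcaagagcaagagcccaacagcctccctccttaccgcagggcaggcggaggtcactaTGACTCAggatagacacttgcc
Gm10029, chr13:6897034-6897134: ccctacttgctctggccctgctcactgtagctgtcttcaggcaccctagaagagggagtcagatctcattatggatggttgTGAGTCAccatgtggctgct
Odz4, chr7:103301606-103301706: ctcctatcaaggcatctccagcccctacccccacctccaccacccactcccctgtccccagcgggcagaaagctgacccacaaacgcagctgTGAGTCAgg
Sdk2, chr11:113788703-113788803: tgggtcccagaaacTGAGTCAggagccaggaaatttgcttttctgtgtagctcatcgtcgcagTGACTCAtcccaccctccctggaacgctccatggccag

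The second set holds the 4 highest promoters of zinc finger genes with a match in capitals to CCAATCA, part of the box bound by NF-Y, a factor of many promoters.
Zfp442, chr2:150277232-150277332: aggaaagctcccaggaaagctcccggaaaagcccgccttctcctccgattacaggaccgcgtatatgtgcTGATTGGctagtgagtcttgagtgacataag
Zfp960, chr17:17200907-17201007: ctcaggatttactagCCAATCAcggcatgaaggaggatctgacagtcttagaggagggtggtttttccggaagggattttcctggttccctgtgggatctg
Zfp935, chr13:62568234-62568334: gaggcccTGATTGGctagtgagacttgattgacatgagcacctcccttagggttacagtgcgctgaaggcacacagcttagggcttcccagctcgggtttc
Zfp120, chr2:149962446-149962546: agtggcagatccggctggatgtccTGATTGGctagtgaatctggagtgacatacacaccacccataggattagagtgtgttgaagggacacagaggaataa

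The third set holds the 3 lowest single-copy promoters that could be shown, with CpG dinucleotides in capitals, since CpG-rich promoters were frequent at that end.
D1Ertd622e, chr1:99557625-99557725: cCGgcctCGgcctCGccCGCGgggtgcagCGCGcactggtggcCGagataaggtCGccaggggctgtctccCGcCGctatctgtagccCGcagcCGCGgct
Ctcf, chr8:108160258-108160358: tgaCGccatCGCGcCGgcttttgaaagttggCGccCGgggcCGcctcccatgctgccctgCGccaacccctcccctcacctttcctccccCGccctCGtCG
1810037I17Rik, chr3:122627122-122627222: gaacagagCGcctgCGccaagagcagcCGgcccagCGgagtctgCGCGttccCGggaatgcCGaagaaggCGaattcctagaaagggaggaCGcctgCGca

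The pileup is the whole number of fragments stacked at the summit, and it was not scaled to depth. The MV+ call held 130955836 fragments and the RAG call 102223606, and each pooled 2 replicates of the line, so that no spread between replicates could be computed and no result has a replicate check. The lowest pileup in the autosomal peaks was 30 for MV+ and 25 for RAG. Errors given here as SE cover fragment counting only and had a median of 0.25 on the log2 scale. Before centring the median log2 ratio over all shared sites was -0.03. The chromosome medians ran from -0.44 on chromosome 13 to 0.36 on chromosome 4. After centring, the ratios had an SD of 0.62, the middle of the distribution lay between quartiles of -0.38 and 0.42, and the extremes were 2.93 and -3.58.

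In all 297 sites, or 5.61%, had a centred ratio of 1 or more, a ratio of pileups at least 2-fold above the median of the chromosome, and 206, or 3.89%, had one of -1 or less. With the fold enrichment over local background in place of the pileup the counts were 137 and 133. The high end closed with a site 25364 bp from Vps13d at 0.998 (rank 300) and the next in order was the Them4 promoter at 0.997. The low end closed with a site near Ighv1-73 at -0.888, and the next was the BC027231 promoter at -0.887. The plot of MV+ against RAG pileups shows that the highest sites had a median pileup of 115.5 fragments in MV+ and 48 in RAG, and the lowest sites of 48 and 110. Among all shared sites the medians were 65 and 68.

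**Figure D1:**
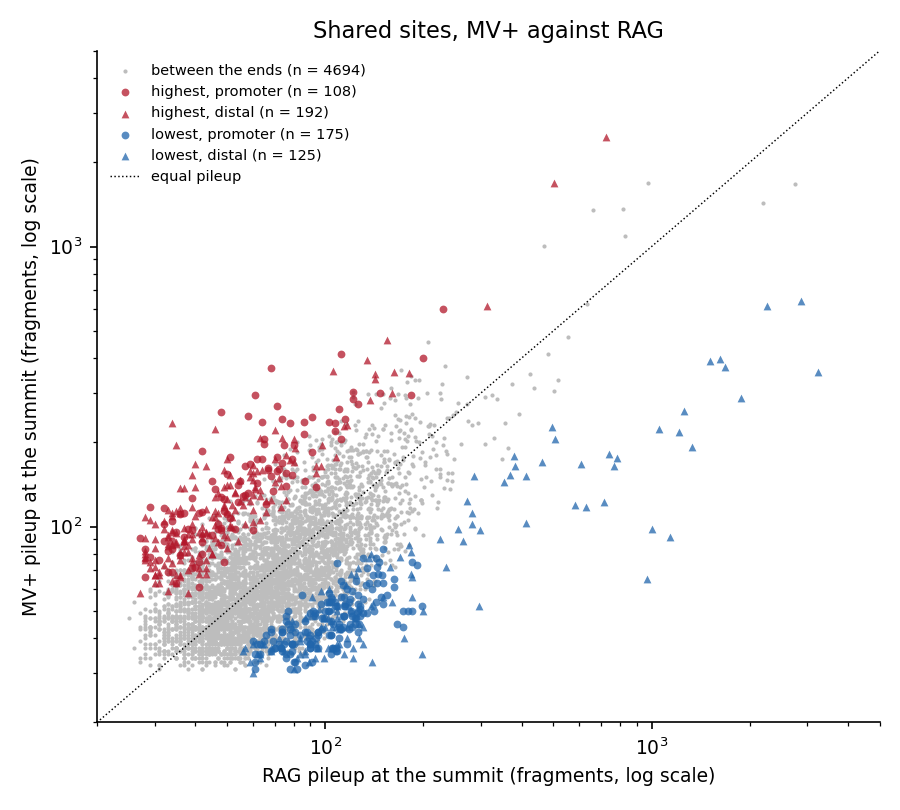
Pileup at the summit in MV+ (vertical axis) against RAG (horizontal axis), both in fragments on log scales, for the shared sites. Circles are promoter and triangles distal sites, red the 300 highest and blue the 300 lowest centred ratios, and the dotted line marks equal pileup; 13 sites with a pileup over 5000 lie outside the axes. A tail of blue triangles runs to RAG pileups above 500.

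Zinc finger genes made up much of the top of the promoter list. Of the 15 highest promoter sites 6 belonged to genes named Zfp and a number. The highest of all was that of 5430403G16Rik on chromosome 5 (110119558 to 110120207), with a pileup of 369 in MV+, 68 in RAG and 81 in Beta-TC3 and a centred ratio of 2.60 ± 0.19 (SE), or 6.08-fold. Its window was multi-copy, as defined below, and its ratio fell to 1.19 under the alternatives. Zfp442 on chromosome 2 had 257 fragments in MV+ and 48 in RAG (2.32 ± 0.23), and Zfp937 nearby had 294 and 61 (2.17 ± 0.20). Zfp40 on chromosome 17 had 186 and 42 (2.29 ± 0.25). Zfp229 had 117 and 32 (2.01 ± 0.29), Zfp932 on chromosome 5 had 243 and 74 (1.88 ± 0.19, and 0.84 on the scale of fold enrichment over background), and Zfp931 had 237 and 64 (1.79 ± 0.20). At these 6 Zfp promoters the raw Beta-TC3 pileup ran from 50 to 111 fragments and lay above the RAG and below the MV+ pileup. Raw Beta-TC3 pileups were higher in general, with a median over shared sites of 113, against 68 in RAG and 65 in MV+. Centred on its chromosome, the log2 of RAG to Beta-TC3 was 0.13 at Zfp937 and -0.01 at Zfp931. It was -0.11 at Zfp229, -0.16 at Zfp932, -0.50 at Zfp442 and -0.87 at Zfp40.

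Roles varied among the other genes of the 15 highest for which one is given here. Gbp3, an interferon-inducible GTPase, had 118 fragments in MV+, 29 in RAG and 57 in Beta-TC3 (2.05 ± 0.30). Tmx4, a thioredoxin-like protein of the endoplasmic reticulum, had 249, 58 and 264 (2.00 ± 0.21), and here the raw Beta-TC3 value was at the MV+ level. Abcd2, a peroxisomal transporter of very long chain fatty acids, had 164, 57 and 79 (1.81 ± 0.22). Gphn, which encodes the scaffold protein gephyrin, had 89, 34 and 186 (1.80 ± 0.29), and Beta-TC3 exceeded both. Chac2, an enzyme of glutathione breakdown, had 91, 27 and 108 (1.77 ± 0.32), and Ppa2, the mitochondrial pyrophosphatase, had 145, 45 and 151 (1.71 ± 0.25). Gm14399, with 270, 71 and 74, and Pppde1, with 412, 112 and 340, had ratios of 1.83 and 1.73. Both windows were multi-copy, and under the alternatives the ratios fell to 1.07 and 0.63. The plot of promoter pileups in the 3 lines sets these side by side with the lowest promoters.

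**Figure D2:**
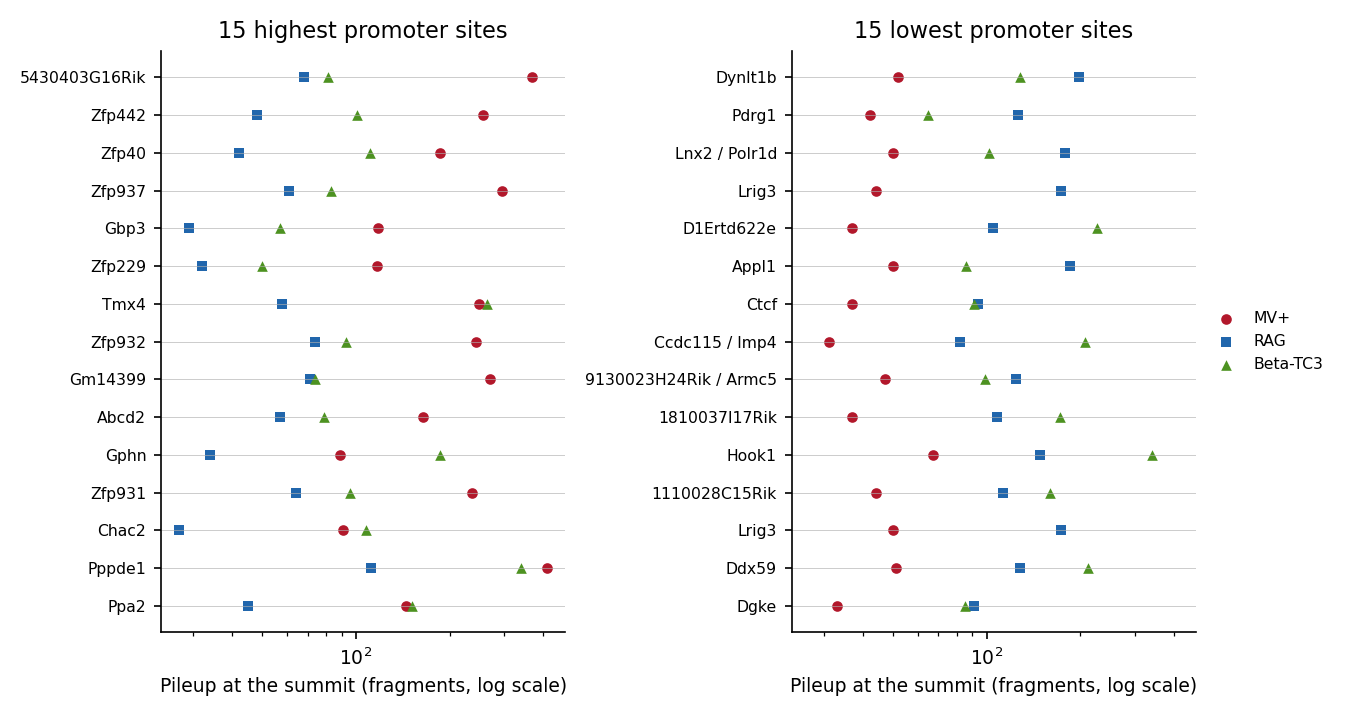
Pileup at the summit (fragments, log scale) in MV+, RAG and Beta-TC3 for the 15 highest promoter sites (left, highest at the top) and the 15 lowest (right, lowest at the top). MV+ exceeds RAG at each site on the left and lies below it at each site on the right, as the choice of the sites fixes, while the Beta-TC3 triangle stands near MV+ at Tmx4, Pppde1 and Ppa2 and near RAG at Gm14399. Pileups are raw and not scaled between the lines.

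Zinc finger genes named Zfp and a number encode in large part DNA-binding proteins with tandem zinc fingers, many of which silence retrotransposons, and they lie in clusters of similar genes. A zinc finger gene under any other symbol was counted here with the other promoters. The Zfp group was chosen after the highest sites were seen. It had 112 shared promoter sites with a median centred ratio of 0.28 (quartiles -0.03 and 0.77), against -0.06 (-0.41 and 0.31) for the other 3288 promoters. Of the 112, 19, or 17.0%, had a ratio of 1 or more, and none had one of -1 or less. Over all shared promoter sites 3.15% had a ratio of 1 or more and 3.26% one of -1 or less. The 19 lay on 6 chromosomes, with 5 each on chromosomes 13 and 17 and 4 on chromosome 2. The 71 promoters with another Zfp start site within 200 kb had a median of 0.42 and the 41 without one of 0.13, and both groups had sites of 1 or more (13 and 6). The 51 other promoters within 1 Mb of a Zfp promoter of 1 or more had a median of 0.12, and 4 of them, or 7.84%, reached 1.

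Part of the Zfp group lies in sequence that recurs in the genome. A window was called multi-copy when the median count of its 31-base words over the mm9 genome was 2 or more, and 14 of the 112 Zfp windows were, Zfp442, Zfp937, Zfp932 and Zfp931 among them. With these left out, 14 of 98 Zfp promoters, or 14.3%, had a ratio of 1 or more, and their median was 0.24. Where reads from similar copies are placed is decided by the aligner, and its part in these ratios was not tested. Against Beta-TC3, each ratio again centred on its chromosome, the Zfp promoters had a median log2 of 0.42 in MV+ and -0.05 in RAG. At the 19 Zfp promoters of 1 or more the windows held an NF-Y match in 42.1%, at the other 88 promoters of 1 or more in 20.5%, and at all Zfp promoters in 25.9%, against 14% of all other promoters. With 19 windows the 95% Wilson interval of the first share ran from 23.1% to 63.7%. Among the 98 single-copy Zfp promoters the NF-Y share was 19.4% (12.8 to 28.3), an interval that holds the 14% of other promoters. Windows of similar genes are related in sequence, and these intervals treat them as separate.

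**Figure D3:**
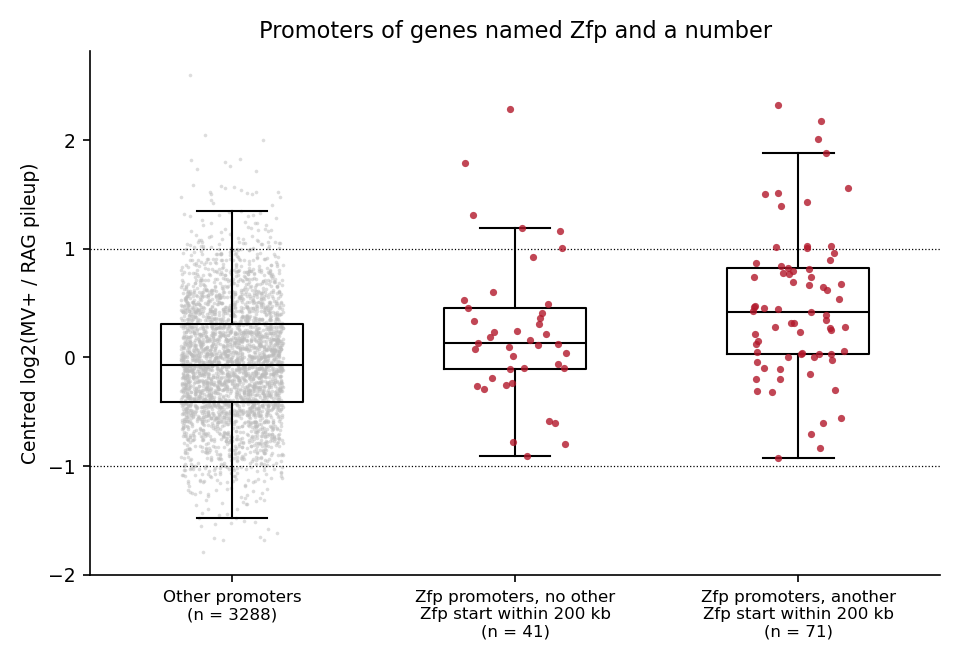
Centred log2 ratio of MV+ to RAG pileup for shared promoter sites of Zfp genes, split by whether another Zfp start site lies within 200 kb, and for all other shared promoters. Each point is a site, boxes span the quartiles with the median as a line, whiskers reach the farthest site within 1.5 box lengths, and dotted lines mark 1 and -1. The Zfp medians of 0.42 and 0.13 lie above the -0.06 of other promoters.

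Distal sites made up the larger share of the high end, and many lay far from any gene. The highest site of all lay 180766 bp from Adcyap1, the gene of the neuropeptide PACAP, between genes on chromosome 17 (93779299 to 93779797), with 234 fragments in MV+, 34 in RAG and 33 in Beta-TC3 (2.93 ± 0.26, or 7.60-fold). The next lay 610038 bp from Nr2f1, which encodes a nuclear receptor of neural and eye development, with 224 and 46 (2.73 ± 0.23). A site 473371 bp from Stim2, a calcium sensor of the endoplasmic reticulum, had 196 and 35 (2.65 ± 0.26). Sites nearest to Fbp2 (137 and 37), Ghr (112 and 34), Gm10029 (82 and 28), Odz4 (168 and 40), Sdk2 (137 and 36), Gm17655 (358 and 106) and Rasgef1b (91 and 28) followed with ratios from 2.33 down to 1.86. Under the alternatives the ratio fell to 0.66 at the Gm17655 site, while at the rest of the 10 it stayed at 1.33 or more. Of these 10 sites 6 had no Beta-TC3 peak. The 10 sites were all single-copy, and the Sdk2 and Rasgef1b sites lay in introns and the rest outside protein-coding genes. The Fbp2 site lay 29 bp from an annotated start of another gene type, as 15 of the 192 highest distal sites lay within 1 kb of such a start (7.81%, against 9.19% of all shared distal sites). The sequence windows of 6 of the 10 are among those printed with AP-1 matches, and those of Adcyap1 and Sdk2 held 2 matches each.

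Sox9, a transcription factor of many progenitor and matrix-producing cells, was the nearest gene of 4 of the 300 highest sites, 1 at its promoter and 3 at 216528, 278586 and 318654 bp from it. The promoter had 83 fragments in MV+ and 28 in RAG (1.58 ± 0.32) and the distal sites 153 and 51 (1.6), 141 and 50 (1.51), and 101 and 51 (0.998). None of the 4 had a Beta-TC3 peak. Over the stretch of chromosome 11 that holds them (112642930 to 114584718) 6 of the 12 shared sites were among the highest, and the median of the 12 was 0.98. Sox9 was singled out after its values were seen, as the gene with most single-copy sites at that end.

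Of the lists of genes, the lens and eye transcription factors were the nearest genes of 7 shared distal sites, and 4 of these had a ratio of 1 or more, where 10.0% of all shared distal sites did. They lay 12144 bp from Mitf (164 fragments in MV+ and 43 in RAG, 1.86), a factor of pigment cells and the eye, 812414 bp from Dach1 (79 and 41, 1.22), 174538 bp from Eya1 (158 and 62, 1.2) and 92161 bp from Meis2 (94 and 39, 1.17). The nearest gene need not be the one a distal site acts on, and 7 sites are few. Distal sites nearest to genes of the matrix and integrin list had a median of 0.63, with 3 of 14 of 1 or more, near Dcn, Tnc and Itgb1. Those nearest to nuclear receptor genes had 3 of 14 of 1 or more, near Nr2f1, Esrrg and Rorb, and a median of 0.04. Of the sites nearest to nephron factors 1 of 6 had a ratio of 1 or more, and of those nearest to tubule genes 1 of 11. Those near Esrrg and Slc4a4 were the 2, and neither list had a distal site of -1 or less, where 5.02% of all shared distal sites did.

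The lowest promoters belonged to genes of varied roles, several of them uncharacterised. Dynlt1b, a light chain of the dynein motor, had 52 fragments in MV+, 198 in RAG and 128 in Beta-TC3 (-1.79 ± 0.22), or 3.45-fold more in RAG, and its window was multi-copy. Pdrg1 had 42, 126 and 65 (-1.68 ± 0.26). The promoter between Lnx2 and Polr1d, a subunit of RNA polymerases I and III, had 50, 179 and 102 (-1.68 ± 0.23), with the MV+ and RAG summits 945 bp apart. Appl1, an adaptor of endosomes, had 50, 185 and 86 (-1.61 ± 0.23). Ctcf, which encodes the zinc finger protein that holds chromatin loops, had 37, 94 and 91 (-1.58 ± 0.28). Hook1, a linker of cargo to microtubules, had 67, 149 and 341 (-1.51 ± 0.21), and Ddx59, an RNA helicase, had 51, 128 and 212 (-1.47 ± 0.24). In raw pileup MV+ was the lowest of the 3 lines at each of these. Centred on its chromosome, the log2 of MV+ to Beta-TC3 ran from -1.83 at Hook1 to -0.10 at Pdrg1. Under the alternatives the MV+ to RAG ratio ran up to -0.68 at Polr1d and -0.92 at Appl1. At the other genes named here it stayed at -1.03 or lower.

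Of the remaining 8 sites among the 15 lowest promoters, the 2 sites of Lrig3 matched the same RAG peak of 173 fragments and had no Beta-TC3 peak. They had 44 and 50 in MV+ and ratios of -1.66 and -1.48, so that they are not separate observations of RAG. The others, at D1Ertd622e, Ccdc115 and Imp4, 9130023H24Rik and Armc5, 1810037I17Rik, 1110028C15Rik and Dgke, had between 31 and 47 fragments in MV+ and between 82 and 124 in RAG. Under the alternatives the ratio ran up to -0.64 at 1110028C15Rik and -0.69 at 9130023H24Rik, and at the rest of these it stayed at -1.10 or lower. At D1Ertd622e the summits were 825 bp apart. These 6 MV+ pileups lay near 30, the lowest of any MV+ peak, and a site below it in MV+ could not be a shared site.

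The lowest sites of all were distal and had very large RAG pileups. The lowest lay 6200 bp from E030030I06Rik on chromosome 10, with 65 fragments in MV+, 967 in RAG and 125 in Beta-TC3 (-3.58 ± 0.18), 12-fold more in RAG. A site in an intron 49866 bp from the nearest start site, of Kctd16, had 98, 1005 and 130 (-3.29 ± 0.15), and one 164965 bp from Gdi2 had 92, 1138 and 179 (-3.18 ± 0.16). A site near Ly6c2 had 356, 3241 and 496 (-2.90), one near Tmem125 had 217, 1212 and 1098 (-2.84), one near Vmn1r238 had 192, 1334 and 271 (-2.73), and one in an intron near Txndc11 had 287, 1877 and 318 (-2.60). The sites near Polr3k (52, 297 and 59), Mc3r (35, 198 and 56) and Myl12b (122, 717 and 133) completed the 10 lowest. Apart from the Tmem125 site, Beta-TC3 was within 2-fold of MV+ at each of them, and RAG stood alone. Of the 10 sites 5 were multi-copy, those of E030030I06Rik, Ly6c2, Tmem125, Mc3r and Txndc11, and the Txndc11 site lay 10 bp from an annotated start of another gene type. On the scale of fold enrichment over the local background these differences were smaller, at most of the sites by far. Under all the alternatives the ratio ran up to only -1.20 at the Kctd16 site, -1.37 at the Myl12b site and -1.84 at the Mc3r site. At the others fold enrichment changed more. On that scale the lowest site had a centred ratio of -1.05, the Gdi2 site -0.61, the Polr3k site -0.52, the Tmem125 site -0.34 and the Vmn1r238 site -0.15. The direction turned at the Ly6c2 site (0.35) and the Txndc11 site (0.049).

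Of the 125 lowest distal sites 23 had a RAG pileup of 500 or more. Their medians were 1138 fragments in RAG, 205 in MV+ and 268 in Beta-TC3. They lay on 16 chromosomes, all 23 had a Beta-TC3 peak, 13 were single-copy and 1 held an AP-1 match. The local background of the peak caller was also higher there in RAG, with a median of 87.0 fragments against 19.2 in MV+, so that the fold enrichment over background differed less, 14.1 in RAG against 8.75 in MV+. Of all shared sites 42 reached a RAG pileup of 500 without a match to mitochondrial DNA, and 27 of these had a ratio of -1 or less. Whether RAG carries more copies of these short segments was not tested, and copy number and accessibility cannot be told apart at a single site.

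The other 102 lowest distal sites lay on 17 chromosomes, and 34 of them were single-copy. Of all 125, 78, or 62.4%, were multi-copy, against 29 of the 192 highest distal sites (15.1%) and 38.9% of all shared distal sites. Some of the lowest sites lay close together. On chromosome 13 (65592655 to 66827868) 12 of 32 shared sites were among the lowest, 10 of them multi-copy, with 36 to 56 fragments in MV+ and 102 to 200 in RAG. On chromosome 6 (47600991 to 47722411, near Ezh2 and Pdia4) 9 of 17 were, 8 of them multi-copy, with 33 to 112 in MV+, 116 to 282 in RAG and 234 to 462 in Beta-TC3. Within 9695 bp of chromosome 8, 159294 bp or more from Gpm6a, all 7 shared sites were among the lowest and all 7 were multi-copy. The local background there was 81.7 fragments in MV+ and 193 in RAG, and the fold enrichment was at most 2.42 in MV+ and 2.62 in RAG, so that these peaks stand little above their surroundings. The 8 lowest sites nearest to Pdia4, a protein of the unfolded protein response list, came from the chromosome 6 group and are not separate events.

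Stretches of mostly single-copy sites were also found at the low end. On chromosome 7 (133645727 to 135382088) all 7 shared sites, among them the promoters of Atxn2l, Maz, Tbc1d10b and Armc5, were among the lowest, with a median of -1.11 and 1 of 7 multi-copy. Farther along it (140985292 to 142927777) 6 of 8 were, with a median of -1.11 and the Mki67 promoter at 77 in MV+ and 143 in RAG. On chromosome 15 (38228806 to 39775684) 4 of 5 were, at Klf10, Azin1, Slc25a32 and Lrp12. At the high end 8 of 9 shared sites on chromosome 5 (109587708 to 110487433), around 5430403G16Rik and Zfp932, were among the highest, 6 of them multi-copy, and the median was 1.44. In all 146 of the highest (48.7%) and 147 of the lowest (49.0%) had another site of the same end within 1 Mb. The median of the shared sites within 5 Mb was 0.11 at the highest sites and -0.17 at the lowest, over the 278 and 267 that had at least 10 such neighbours, and it passed 0.5 in the direction of the end at 10 and 21 sites. A copy number change of a part of a chromosome and a change of accessibility over a region cannot be told apart from these values.

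Promoters were scarce at the high end. A promoter site had its MV+ summit within 1 kb of a protein-coding start site, and 108 of the 300 highest, or 36.0% (95% Wilson interval 30.8 to 41.6), were promoter sites, against 3400 of all 5294, or 64.2%. At the low end 175, or 58.3% (52.7 to 63.8), were. These intervals cover the sampling of sites only. With sites of at least 50 fragments in both lines the share at the high end was 55.3%, against 71.3% of all such sites. The multi-copy windows moved the low end: among single-copy sites 162 of 209 lowest sites, or 77.5% (71.4 to 82.6), were promoters, with 74.2% of all single-copy sites, whereas the high end stayed at 96 of 259, or 37.1% (31.4 to 43.1). In the highest distal set 55 of 192 sites lay in introns and 137 outside protein-coding genes, and 35.4% were over 100 kb from a protein-coding start site, against 27.4% of all shared distal sites. The lowest promoters more often had start sites of several genes within 1 kb, 37 of 175 (21.1%) against 9 of 108 highest (8.33%) and 14.1% of all shared promoters. Their windows were also richer in G and C, with a median of 69.2% of the window bases (100 on either side of the MV+ summit) against 63.2% at the highest promoters and 66.7% at all, and held a median of 21 CpG dinucleotides against 14 and 18.

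**Figure D4:**
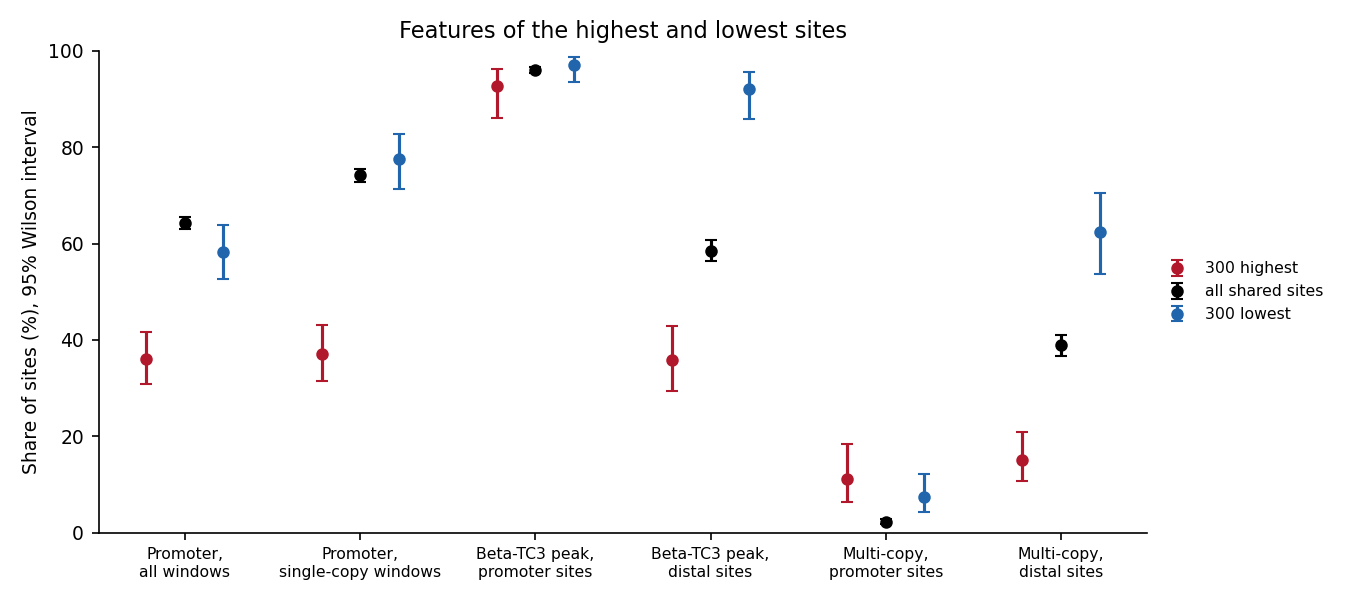
Share of sites (%) that were promoters (all windows, then single-copy windows only), and, for promoter and distal sites apart, that overlapped a Beta-TC3 peak and that were multi-copy, for the 300 highest sites (red), all shared sites (black) and the 300 lowest (blue), with 95% Wilson intervals over sites. The red promoter share of 36.0% lies below the black 64.2%, and the blue share moves from 58.3% to 77.5% once multi-copy windows are left out.

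The third line places the ends. Of all shared sites 82.7% overlapped a Beta-TC3 peak by 1 bp or more, of the lowest 285 of 300 or 95% (91.9 to 96.9), and of the highest 169 or 56.3% (50.7 to 61.8). At promoters the shares were alike, 92.6% of the highest, 97.1% of the lowest and 96.1% of all. At distal sites they were 35.9% (29.5 to 42.9), 92.0% (85.9 to 95.6) and 58.6%. Among single-copy distal sites they were 28.8% (22.4 to 36.2) of 163, 83.0% (69.9 to 91.1) of 47 and 43.3% of 1158. The highest distal sites were thus mostly open in MV+ and RAG but not called in Beta-TC3, and the lowest were mostly called in all 3 lines.

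Where all 3 lines had a peak, the pileup was compared with Beta-TC3, again centred on the chromosome. At the 100 highest promoters with a Beta-TC3 peak the median log2 was 0.79 for MV+ and -0.52 for RAG, and MV+ was the farther of the pair from Beta-TC3 at 61 of them. At the 69 highest distal sites it was 1.42 and 0.07, with MV+ farther at 50. At the 170 lowest promoters it was -0.58 and 0.42, with MV+ farther at 92. At the 115 lowest distal sites it was -0.07 and 1.10, with MV+ farther at 23. At promoters the lines thus lay on either side of the chromosome median, and at distal sites 1 line was farther from it, MV+ at the high end and RAG at the low end. That median was taken mostly over promoters. Over all shared distal sites with a Beta-TC3 peak the medians were 0.34 for MV+ and 0.36 for RAG, and over such promoters -0.08 and -0.10. Set beside these distal values, RAG was lower at the highest distal sites and MV+ lower at the lowest, so that both lines departed there too. Because the ends were chosen by the MV+ to RAG ratio, a spread of the pair was fixed, but not which line would carry it.

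**Figure D5:**
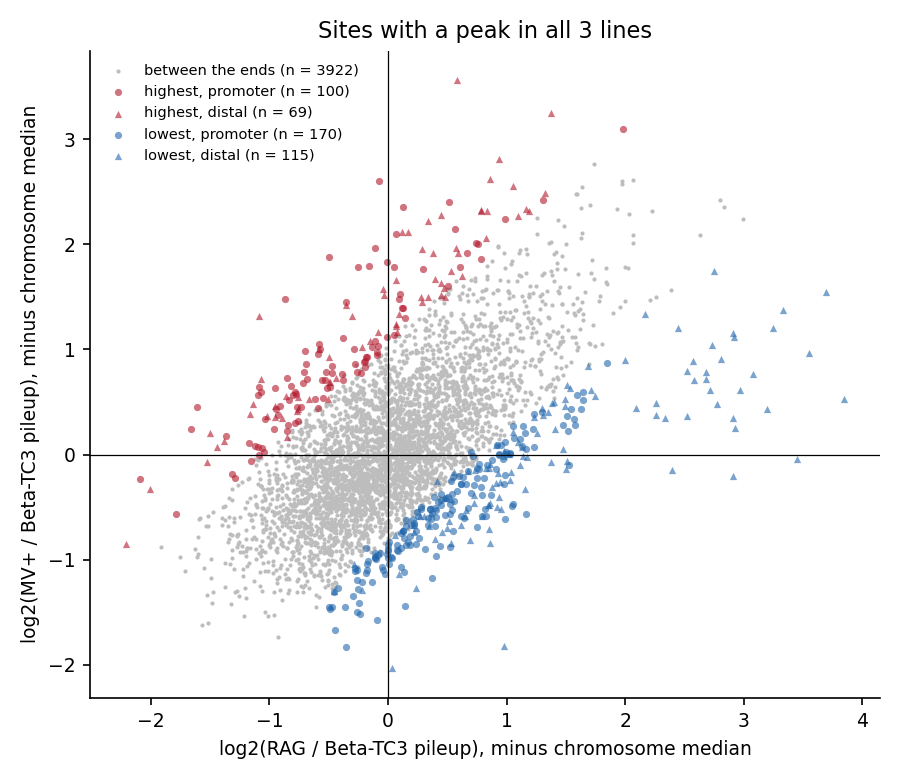
Log2 ratio of MV+ to Beta-TC3 pileup (vertical axis) against that of RAG to Beta-TC3 (horizontal axis), each minus its chromosome median, for shared sites that also overlap a Beta-TC3 peak. Circles are promoters and triangles distal sites, red the highest and blue the lowest. The blue triangles extend to the right, and their medians are 1.10 for RAG and -0.07 for MV+. Over all distal sites shown the medians are 0.36 for RAG and 0.34 for MV+.

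Motif matches differed between the ends, and at distal sites the shares also moved with the multi-copy windows. An AP-1 match (TGANTCA) stood in 90 of 192 highest distal windows of 100 bases on either side of the summit, or 46.9% (39.9 to 53.9), in 7 of 125 lowest, or 5.60% (2.74 to 11.1), and in 27.6% of all shared distal windows. Among single-copy distal windows it was 85 of 163 at the high end, or 52.1% (44.5 to 59.7), 7 of 47 at the low end, or 14.9% (7.41 to 27.7), and 42.9% of all. Read from the motif, the 497 single-copy distal sites with an AP-1 match had a median ratio of 0.47 and the 661 without one of 0.17. A ratio of 1 or more was found at 16.9% of the former and 11.6% of the latter, and one of -1 or less at 1.21% and 4.69%. A Beta-TC3 peak overlapped 25.6% of the sites with a match and 56.6% of those without. A TEAD match (CATTCC) was found in 20.8% of the highest distal windows, 6.4% of the lowest and 15.9% of all, and among single-copy ones in 22.7%, 12.8% and 20.5%.

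Of the 25 motifs searched, 8 had a share at either end of the distal sites whose Wilson interval left out the share of all distal windows, a choice made after the values were seen and with no allowance for the number of motifs. Beside AP-1 and TEAD these were NF-Y (CCAATCA), with 13% of the highest, 0.8% of the lowest and 5.65% of all, IRF (GAAANNGAA), with 8.85%, 0.8% and 3.7%, and the MAF motif (TGCTGAC), with 8.85%, 1.6% and 5.39%. The E-box CAGGTG, bound by ZEB and SNAI factors, was found in 5.21%, 22.4% and 13.4%, the E-box CACGTG in 3.12%, 8% and 2.64%, and YY1 (AAGATGGCG) in none of 192, 5.6% and 4.7%. Among single-copy distal windows AP-1, the E-box CACGTG, NF-Y and IRF still had such a share, and MEIS/TGIF (TGACAG) then had one too, with 21.5% of the highest, 17.0% of the lowest and 14.3% of all.

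At promoters the AP-1 match was rare at both ends, with 2.78% of the highest and 2.29% of the lowest windows against 3.15% of all. NF-Y matches (CCAATCA) stood in 24.1% (17.0 to 32.9) of the highest promoters, 13.7% (9.39 to 19.6) of the lowest and 14.4% of all, and among single-copy promoters in 17.7%, 14.8% and 14%. The E-box CACGTG, bound by MYC, MAX and USF factors, was found in 1.85% (0.509 to 6.50) of the highest, 10.3% (6.61 to 15.7) of the lowest and 7.15% of all. ETS matches (CCGGAAG) were found in 9.26%, 18.9% and 14.9%, and SP/KLF matches (GGGCGGGG) in 25%, 37.1% and 35.5%. NRF1 matches (GCGCATGCG) were found in none of 108 highest, 6 of 175 lowest and 3.53% of all promoters. The MAF motif was found in 6.48%, 3.43% and 2.29%. The E-box CAGCTG was found in 7.41%, 12.6% and 9.32% and the E-box CAGGTG in 6.48%, 10.3% and 8.18%. For ETS and for these last 2 the intervals at both ends held the share of all promoters. HNF1, HNF4 and homeodomain matches stood in at most 2 windows of either end.

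The gene lists did not set the promoters of the ends apart as groups. Over all 27 lists 207 shared promoter sites belonged to a member, with a median ratio of -0.12. Of these 8, or 3.86%, had a ratio of 1 or more and 5, or 2.42%, one of -1 or less, close to the 3.15% and 3.26% of all shared promoters. No shared site lay within 100 kb of Pax6, whose promoter was open in MV+ but not in RAG. The immune, endothelial and Hox lists had no shared promoter site, and the lens, crystallin, nephron and tubule lists had 2 each, none at either end.

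The list with the highest median was that of interferon and antigen presentation genes, with 5 shared promoter sites, a median of 0.78 and 2 of 1 or more. These were Gbp3, given above, and Usp18, a protease that removes ISG15, with 107 fragments in MV+, 51 in RAG and 161 in Beta-TC3 (1.00 ± 0.25), down to 0.79 under the alternatives. Among 12 cell cycle inhibitor and p53 pathway sites, Ccng1, a p53 target, had 168 and 59 (1.52 ± 0.22), whereas Cdkn2a, which encodes the inhibitors p16 and p19, had 37 and 70 (-1.28 ± 0.29), and the median was 0.12. Among 16 sites of the unfolded protein response Edem1 (302 and 122, 1.24 ± 0.15) and Sel1l (294 and 183, 1.09 ± 0.14), both of the degradation of misfolded proteins, were at the high end, with values down to 0.70 and 0.58 under the alternatives. Ddit3, a stress-induced transcription factor (44 and 121, -1.14 ± 0.25), and Dnajb11, a chaperone partner (50 and 103, -0.93 ± 0.25), were at the low end, and the median of the list was -0.08. At Ddit3 the direction turned on the scale of fold enrichment over background (0.085).

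Other list members were spread over both ends. Mvd, an enzyme of the mevalonate pathway, had 46 fragments in MV+ and 76 in RAG (-0.95 ± 0.27). Pfkp, a phosphofructokinase, had 75 and 49 (1.06 ± 0.27), where the ratio before centring was 0.61 and the alternatives ran down to 0.40, and Pgam1, another enzyme of glycolysis, had 50 and 92 (-0.89 ± 0.25). Tgfbr1, a receptor of TGF-beta, had 174 and 64 (1.09 ± 0.21), and Id4, an inhibitor of DNA binding in the BMP list, had 49 and 131 (-0.97 ± 0.24). Etv1 (41 and 104, -0.94 ± 0.27) and Etv5 (55 and 119, -1.0 ± 0.24), which encode ETS factors downstream of FGF, each had a site at the low end. The Etv1 site lay 690 bp from the RAG summit, and a second Etv1 promoter site, matched to the same RAG peak with summits 6 bp apart, had 70 and 104 and a ratio of -0.16, within its counting error of 0. Mki67, a marker of dividing cells, had 77 and 143 (-1.02 ± 0.20), and Rest, the repressor of neuronal genes, had 43 and 112 with no Beta-TC3 peak (-1.22 ± 0.26). Under the alternatives the ratios at the low end ran up to -0.30 at Mki67 and -0.52 at Etv5. They ran up to -0.63 at Id4 and Etv1, -0.66 at Rest and -0.68 at Mvd and Pgam1. The 11 sites of cytosolic ribosomal proteins had none at either end and a median of 0.15.

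A few sites at the high end match mitochondrial DNA. In 5 of the highest windows at least 50% of the 25-base words were found in the mitochondrial genome, with MV+ pileups from 26619 to 743921 and RAG pileups from 11389 to 324876, and none of the lowest windows did. These 5 were all of the shared sites with such a match, and they had ratios from 1.05 to 1.44.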

How the data were processed

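ATAC-seq was performed by the authors in duplicate on MV+, RAG and Beta-TC3 cells, with 50000 nuclei per reaction, 11 cycles of amplification and paired 75 bp reads. Per the study's methods and processing notes, reads were trimmed with Trim Galore 0.4.1 and aligned to mm9 with Bowtie2 2.2.6, SAMtools 1.6 and bedtools were used, and peaks were called with MACS2 2.1.1 at a q-value of 0.05. The deposited files hold 1 genome-wide call per line with both replicates pooled, and no control library. For each peak the authors give the pileup signal (fragments at the summit), a ratio (fold enrichment over the local background), the −log10 of the p-value and of the q-value, and in the second file the same values with an integer score. The rows of both files were checked to hold the same peaks, and the table with pileups was used. The score and p-values were not used.

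From these, peaks were matched, ratios centred and sites annotated with GENCODE M1 on NCBIM37 (mm9), using Python 3.11.15, pandas 2.3.3, NumPy 2.4.6, SciPy 1.17.1 and numba 0.67.0. The distance to a gene is from the MV+ summit to the nearest protein-coding transcript start. Windows of 100 bases on either side of the MV+ summit were read from the reference for motifs and for the count of 31-base words. The counting SE of a log2 ratio treats both pileups as Poisson counts. The caller kept all duplicate fragments it was given, so that fragments need not be independent molecules, and intervals cover counting or the sampling of sites only. Matching was checked against a direct search on the called peaks of some chromosomes. Centring and ranking were tested on counts simulated at the shared sites, and the motif search on random sequence with planted matches. With 1 pooled call per line there is no test.

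The sites, ends and gene lists were chosen with earlier results of these data known. Genes were named by a rule: the 15 highest and lowest promoters, the 10 highest and lowest distal sites, list members at either end and the sites at the limits. Zfp genes, Sox9 and the regions with at least 4 end sites were chosen after their values were seen. Sites on the sex chromosomes were not analysed here. 1 list member at the high end is not reported here.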

Additional observations from a re-analysis of the deposited data

How the results depend on the processing

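Of 194 values of the main results under the alternatives, 163 stayed within their interval or within 1.5 times the count and 31 moved. Under the fold enrichment ratio in place of the pileup, 137 sites had a ratio of 1 or more and 133 one of -1 or less, the promoter shares were 44.3% at the high and 65.3% at the low end, the Beta-TC3 share of the highest was 62.0%, 150 of the 300 lowest sites were kept, and 3 named sites changed sign, near Txndc11 (0.049) and Ly6c2 (0.35) and at Ddit3 (0.085). Of 62 named sites with a ratio past 1 or -1, 23 were no longer past it on that scale, 6 with centring on sites within 5 Mb and 4 with centring on the genome median. With a pileup of at least 50 in both lines, 142 and 100 sites passed, the promoter share of the highest was 55.3% (71.3% of all sites), their Beta-TC3 share 77.7%, their distal AP-1 share 38.1%, the multi-copy share of the lowest 25%, and 141 of the highest and 136 of the lowest sites were kept. Centring on the genome median gave a Beta-TC3 share of 90% at the low end. An overlap of at least 50% of both peaks kept 171 of the lowest sites. With 100 and 600 sites at each end the promoter share of the lowest was 37.0% and 64.5%, and with 600 that of the highest was 42.2%.

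The following alternatives were chosen after seeing the data. With single-copy windows only, ranked anew, the promoter share of the lowest was 80.0% (74.2% of all), the NF-Y share of the highest promoters 16.5% and the AP-1 share of the lowest distal sites 23.3%. With local centring as well, 118 sites had a ratio of -1 or less, 158 of the lowest sites were kept, the Beta-TC3 share of the highest was 48.7%, the NF-Y share of the highest promoters 14.2%, the promoter share of the lowest 78.7%, their distal AP-1 share 23.4%, and 12 Zfp promoters were among the highest in place of 19. With summits within 150 bp the promoter and multi-copy shares of the lowest were 64.3% and 25.3%. The causes were not tested. No paired analysis was possible because both replicates of a line were pooled in 1 call, and for the same reason no replicate could be left out. The pileup floor of the calls limits how low a shared site can be in either line.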

Other observations

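Further single sites at either end lay near genes of other groups, all distal unless stated. At the high end, sites nearest to Vcan, which encodes a large proteoglycan of the extracellular matrix, had 132 fragments in MV+ and 53 in RAG (1.76) and 128 and 57 (1.61). Tnc, a matrix glycoprotein of remodelling tissue, had 108 and 28 (1.59), and Itgb1, the common beta integrin chain, 109 and 34 (1.45). Twist1, a mesenchymal transcription factor, had 59 and 33 (1.25), as the only 1 of 11 distal sites of the mesenchymal list at 1 or more, and the median of these 11 was -0.15. Oxr1, which protects cells from oxidative damage, had 3 of the highest sites, 2 of them at promoters, with ratios from 1.17 to 1.41.

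At the low end, a site nearest to Axin2, a feedback target of Wnt signalling, had 397 fragments in MV+ and 1615 in RAG (-2.01), and one nearest to Limd1, a regulator of the Hippo pathway, had 258 and 1255 (-2.36). Both are among the 23 lowest distal sites with a RAG pileup of 500 or more. The median local background of those 23 was 87.0 fragments in RAG against 19.2 in MV+, so that fold enrichment differed less. A site nearest to Myc had 35 and 114 (-1.41). The shared promoter sites of these genes had ratios of 0.43 at Axin2 (136 and 102), -0.07 at Limd1 and -0.63 at Myc. On chromosome 12, by contrast, 6 of the 16 shared sites between 114544086 and 115034588, next to Ighg2c and Adam6a in the immunoglobulin heavy chain region, were among the highest. They had 63 to 165 fragments in MV+ and 35 to 97 in RAG, 2 of the 6 were multi-copy and none had a Beta-TC3 peak. The lines also differ in strain, and its part here was not tested.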
